A study of Homo sapiens
Mus musculus with 2 samples.

Results

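Interferon-stimulated genes are the genes that cells switch on when interferon reaches them, and 43 of them were followed here through the cell classes of the mouse colonic epithelium. They were taken by name from a list of 43 symbols, and all 43 were among the 25504 genes counted in both libraries, with 38929 unique molecular identifiers (UMIs, each marking a captured RNA molecule) between them. The study profiled the colonic epithelium of an untreated wild-type (WT) C57Bl6 mouse as 2 libraries, called replicates 1 and 2. The epithelium was dissociated with EDTA, collagenase and DNase and magnetically enriched for viable cells. Human K562 cells, a leukaemia line, had been spiked in and are not analysed here. Single cells were barcoded in droplets with inDrop and their RNA was amplified by CEL-Seq. There is no treated, mutant or infected group, so the comparisons are between cell classes within the same libraries, and every p-value covers only the spread between 2 libraries of the same animal, which may be technical.

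Interferons reach cells through paired receptor chains that activate JAK kinases. These phosphorylate STAT proteins, which enter the nucleus, with IRF9 for type I and type III interferon, and turn on genes that detect viral RNA, block its translation or copying, tag proteins, or attack vacuoles that hold bacteria and parasites. In the gut, type III interferon acts mainly on the epithelium, interferon gamma comes from lymphocytes in and under it, and the resident microbes are known to keep a basal interferon response running.

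The deposited barcodes had a median of 4615.5 UMIs in replicate 1 and 4756.5 UMIs in replicate 2, and 1651 and 630 of them were kept after likely doublets were left out. They were clustered on genes that did not include any of the 43, so that the levels below did not shape the classes. The classes were T cell-like cells (41 cells in replicate 1 and 10 in replicate 2), colonocyte-like cells in 3 clusters, goblet-like cells (327 and 81), deep crypt secretory-like cells (263 and 76) and crypt cells (148 and 51). Colonocytes are the absorptive cells of the crypt top, goblet cells secrete mucus, and deep crypt secretory cells are the Reg4-bearing secretory cells of the crypt base. The colonocyte-like clusters were led by Slc37a2 (251 and 80 cells), by Emp1 (129 and 39 cells) and, in a shallow cluster of cells with few UMIs, by genes that include Dnase1 and Mgll (142 and 31 cells, median 1770 and 1877 UMIs). The crypt cells were led by cycling markers and also had the highest stem marker score. The goblet-like cells joined a Clca1-led and a Best2-led cluster. The first 10 leading genes of the Best2-led cluster held Mptx1, a deep crypt secretory marker, and no goblet marker. The goblet markers Agr2 and Sytl2 followed among the 15 leading genes used for naming. Its goblet marker score was 2.972, against 2.29 for deep crypt secretory markers. Results on goblet-like cells were also computed without this cluster. Other cells fell into unnamed clusters, of which 1 is led by Reg3b and described below, and into 12 tuft-like cells. Barcodes were numbered only, so barcodes shared by the libraries could not be counted. No pair had identical counts.

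Colonocyte-like cells carried more interferon-stimulated RNA than the other epithelial classes in both libraries. The 43 genes together made up 5497 and 5398 of every 1000000 UMIs (CPM) in colonocyte-like cells of replicates 1 and 2, against 2388 and 2117 CPM in goblet-like, 1581 and 1535 CPM in deep crypt secretory-like and 2221 and 1821 CPM in crypt cells. Ifit1bl1 alone gave 33.1% and 29.9% of those UMIs in colonocyte-like cells, against 0.87% to 3.94% in the other epithelial classes. Without Ifit1bl1 the sum stayed highest in colonocyte-like cells, at 3677 and 3786 CPM, against 2294 and 2062 CPM in goblet-like, 1540 and 1513 CPM in deep crypt secretory-like and 2198 and 1805 CPM in crypt cells. Over the 5 named classes, 21 of the 43 genes had their highest level in colonocyte-like cells in both libraries, where 11.5% of all 7867 genes tested did. Another 6, namely Ddx58, Gbp3, Gbp6, Ifi35, Irf9 and Parp14, were highest in T cell-like cells, from 2 to 10 UMIs in replicate 1 and 1 to 3 in replicate 2, where 1 UMI is 46.6 CPM, and edgeR called none of them higher there. Ifitm3 and Irf8 were highest in crypt cells and Ifi44 in deep crypt secretory-like cells. The class differed between the libraries for the other 13.

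**Figure D1:**
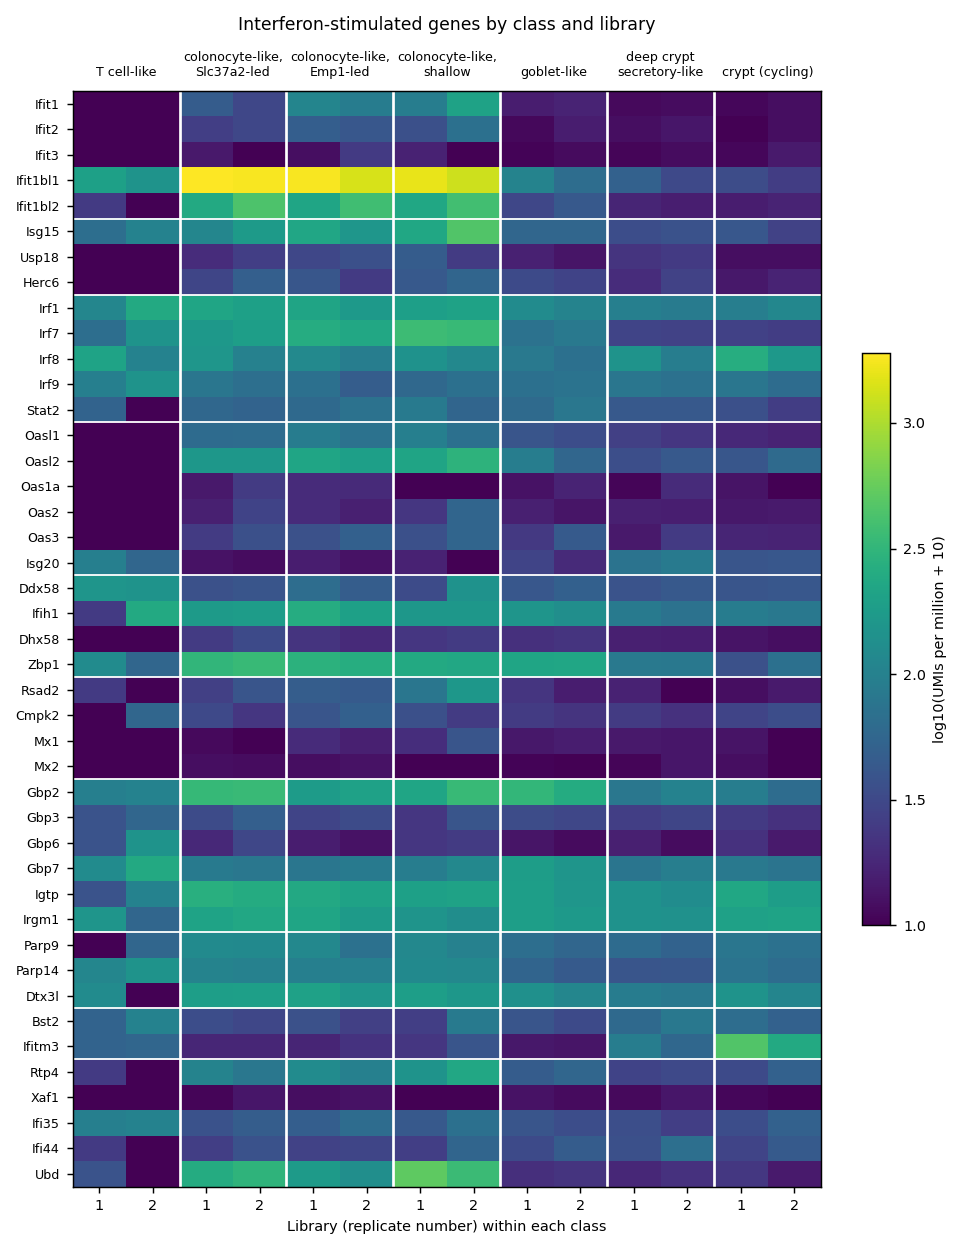
Level of each of the 43 genes (rows, grouped by role) in 7 classes and clusters (columns, a pair of libraries each), as log10 of CPM plus 10. The brightest row is Ifit1bl1 in the 3 colonocyte-like clusters, and Ifitm3 in crypt cells stands apart from the other columns of its row.

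To ask which genes differ, UMIs were summed per library and class and the colonocyte-like clusters, with equal weight, were set against the mean of goblet-like, deep crypt secretory-like and crypt cells with edgeR's quasi-likelihood test, adjusted over all genes tested. Of the 41 members with enough UMIs, 25 were higher in colonocyte-like cells and 3 were lower at an adjusted p under 0.05. Among all 7816 genes tested 48% were called, 14% as higher and 34% as lower. The median log2 fold change was 0.97 over the members and -0.49 over all genes, so that a value near 0 stands above the typical gene. DESeq2 called 25 members higher and 2 lower, with a median over all genes of -0.28 and 40.3% of all its calls higher, against 29.1% of edgeR's. Mx2 and Xaf1, with under 20 UMIs in these classes, were not tested.

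Of the 5 IFIT genes, whose proteins bind viral RNA and stop its translation, 4 were higher in colonocyte-like cells, and Ifit1bl1, Ifit1bl2 and Ifit1 had the 3 largest log2 fold changes of the 41 members. Ifit1bl1, a mouse relative of Ifit1, stood at 1820 and 1611 CPM in colonocyte-like cells, against 94.1 and 55.4 CPM in goblet-like, 40.8 and 22.0 CPM in deep crypt secretory-like and 23.7 and 15.8 CPM in crypt cells. The lowest colonocyte-like value is far above the highest of the others, and the log2 fold change was 5.37 ± 0.12 (SE). Ifit1bl2 had 222.1 and 402.6 CPM in colonocyte-like cells, against 20.5 and 32.9 CPM in goblet-like, 7.16 and 5.49 CPM in deep crypt secretory-like and 5.15 and 6.79 CPM in crypt cells (log2 fold change 4.72 ± 0.18, adjusted p = 3.419e-146). Ifit1 itself stood at 65.4 and 54.5 CPM in colonocyte-like cells, against 5.13 and 6.92 CPM in goblet-like, 1.43 and 1.83 CPM in deep crypt secretory-like and 1.03 and 2.26 CPM in crypt cells (4.71 ± 0.32, adjusted p = 1.142e-46). The groups do not overlap for any of these 3 genes, and the share of all genes without overlap is not given here. Ifit2 had 25.5 and 27.3 CPM in colonocyte-like cells, against 0 to 5.19 CPM in the 6 other sums (3.91 ± 0.45, adjusted p = 4.655e-17). Ifit3, with 31 UMIs in all barcodes, did not pass (1.71 ± 0.76, adjusted p = 0.051). Ifit1, Ifit1bl1 and Ifit1bl2 are related genes, and how the authors assigned reads shared by such copies is not given in the sources used here, so the division of counts among them is uncertain.

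All 3 genes of ISG15 tagging, Isg15, Usp18 and Herc6, were higher in colonocyte-like cells. Isg15, a ubiquitin-like protein that is joined to other proteins, stood at 155.9 and 178.2 CPM in colonocyte-like cells, against 46.2 and 46.7 CPM in goblet-like, 24.3 and 27.4 CPM in deep crypt secretory-like and 31.9 and 18.1 CPM in crypt cells (2.49 ± 0.15, adjusted p = 6.044e-57). Usp18, the protease that takes ISG15 off again, rose by 1.84 ± 0.38 on the log2 scale and Herc6, which attaches it in mice, by 1.35 ± 0.31, and both calls were lost with thinned sums. Ubd, which encodes FAT10, another ubiquitin-like protein, and was listed outside the role groups, had 244.1 and 235.9 CPM in colonocyte-like cells, against 10.3 and 12.1 CPM in goblet-like, 7.87 and 10.98 CPM in deep crypt secretory-like and 13.4 and 4.52 CPM in crypt cells (4.66 ± 0.17, adjusted p = 3.347e-153). For Isg15 and Ubd the lowest colonocyte-like sum lay well above the highest of the others, and the share of all genes without overlap is not given here.

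Of 5 transcription factors 3 rose. Irf7, which amplifies the interferon response, stood at 213.3 and 205.5 CPM in colonocyte-like cells, against 61.6 and 72.7 CPM in goblet-like, 19.3 and 18.3 CPM in deep crypt secretory-like and 17.5 and 15.8 CPM in crypt cells (3.05 ± 0.15, adjusted p = 3.56e-87). Irf1, an activator shared with the interferon gamma response, had 204.6 and 176.1 CPM in colonocyte-like cells, against 116.4 and 95.2 CPM in goblet-like, 85.9 and 78.7 CPM in deep crypt secretory-like and 84.4 and 104.1 CPM in crypt cells (0.97 ± 0.13, adjusted p = 1.043e-12). Stat2, a subunit of the complex that acts for type I and III interferon, rose by 0.61 ± 0.20. Its partner Irf9 did not pass (-0.24 ± 0.19, adjusted p = 0.304), nor did Irf8, a factor best known from myeloid and B cells (-0.11 ± 0.14, adjusted p = 0.547).

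Genes that sense or degrade nucleic acids divided. Zbp1, a sensor of Z-form nucleic acid that can start cell death, stood at 286.7 and 297.8 CPM in colonocyte-like cells, against 208.2 and 212.9 CPM in goblet-like, 73.7 and 71.3 CPM in deep crypt secretory-like and 26.8 and 58.8 CPM in crypt cells (1.65 ± 0.13, adjusted p = 8.637e-36). Ifih1, the RNA sensor MDA5, had 193.6 and 175.1 CPM in colonocyte-like cells, against 146.0 and 124.6 CPM in goblet-like, 77.3 and 62.2 CPM in deep crypt secretory-like and 81.3 and 72.4 CPM in crypt cells (0.90 ± 0.14, adjusted p = 2.047e-10). Dhx58 rose as well (1.21 ± 0.44), while Ddx58, which encodes the sensor RIG-I, did not pass (0.29 ± 0.22, adjusted p = 0.291). Among the oligoadenylate synthetases and their relatives, most of which activate the nuclease RNase L, Oasl1, Oasl2, Oas2 and Oas3 rose by 1.16 to 2.11 on the log2 scale, and Oas1a did not pass. Oasl2 stood at 178.4 and 171.9 CPM in colonocyte-like cells, against 25.05 to 83.3 CPM in the other sums. Isg20, an exonuclease of single-stranded RNA, went against this group, with 4.18 and 2.10 CPM in colonocyte-like cells, against 19.4 and 8.66 CPM in goblet-like, 64.4 and 75.0 CPM in deep crypt secretory-like and 29.9 and 31.7 CPM in crypt cells. It fell by 3.02 ± 0.37 on the log2 scale (adjusted p = 3.023e-15), a call lost with thinned sums. Its groups do not overlap, and the share of all genes without overlap is not given here.

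Among the antiviral effectors, Rsad2, which encodes viperin, stood at 30.4 and 39.8 CPM in colonocyte-like cells, against 12.6 and 5.19 CPM in goblet-like, 6.44 and 0 CPM in deep crypt secretory-like and 2.06 and 4.52 CPM in crypt cells (2.88 ± 0.31, adjusted p = 3.711e-19). Mx1, a dynamin-like restriction factor with 54 UMIs in all barcodes, and Cmpk2, a mitochondrial nucleotide kinase, did not pass. Of 6 GTPases of vacuole defence, Gbp2 and Igtp rose. Gbp2 had 254.4 and 287.3 CPM in colonocyte-like cells, against 313.8 and 242.3 CPM in goblet-like, 69.4 and 93.3 CPM in deep crypt secretory-like and 83.4 and 54.3 CPM in crypt cells (0.99 ± 0.12, adjusted p = 8.268e-15), so that it overlapped with goblet-like cells. Igtp stood at 243.4 and 222.3 CPM in colonocyte-like cells, against 179.7 and 147.1 CPM in goblet-like, 136.7 and 118.9 CPM in deep crypt secretory-like and 220.3 and 176.4 CPM in crypt cells (0.36 ± 0.12, adjusted p = 0.00578), a call lost without the library block. Irgm1 was nearly even, with 197.0 and 194.0 CPM in colonocyte-like cells, against 181.4 and 161.0 CPM in goblet-like, 136.0 and 133.5 CPM in deep crypt secretory-like and 193.5 and 201.3 CPM in crypt cells (0.03 ± 0.12, adjusted p = 0.843). Parp9, Parp14 and Dtx3l, which modify proteins with ADP-ribose and ubiquitin, rose by 0.81, 1.14 and 0.70. Dtx3l had 184.8 and 166.7 CPM in colonocyte-like cells, against 130.1 and 102.1 CPM in goblet-like, 81.6 and 71.3 CPM in deep crypt secretory-like and 136.9 and 99.5 CPM in crypt cells.

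The pair of membrane proteins ran the other way. Ifitm3, which blocks virus entry from endosomes, stood at 7.99 and 10.5 CPM in colonocyte-like cells, against 3.99 and 3.46 CPM in goblet-like, 83.0 and 47.6 CPM in deep crypt secretory-like and 450.9 and 233.0 CPM in crypt cells, so that goblet-like cells lay under colonocyte-like cells and both others far above. Ifitm3 fell by 2.29 ± 0.35 on the log2 scale (adjusted p = 3.274e-10), a call lost with thinned sums. Bst2, which encodes tetherin and holds budding virus at the surface, had 24.3 and 23.1 CPM in colonocyte-like cells, against 29.7 and 22.5 CPM in goblet-like, 50.1 and 71.3 CPM in deep crypt secretory-like and 55.6 and 40.7 CPM in crypt cells. It fell by 0.84 ± 0.23 (adjusted p = 0.00102), a call lost in DESeq2, with thinned sums and without the Best2-led cluster.

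**Figure D2:**
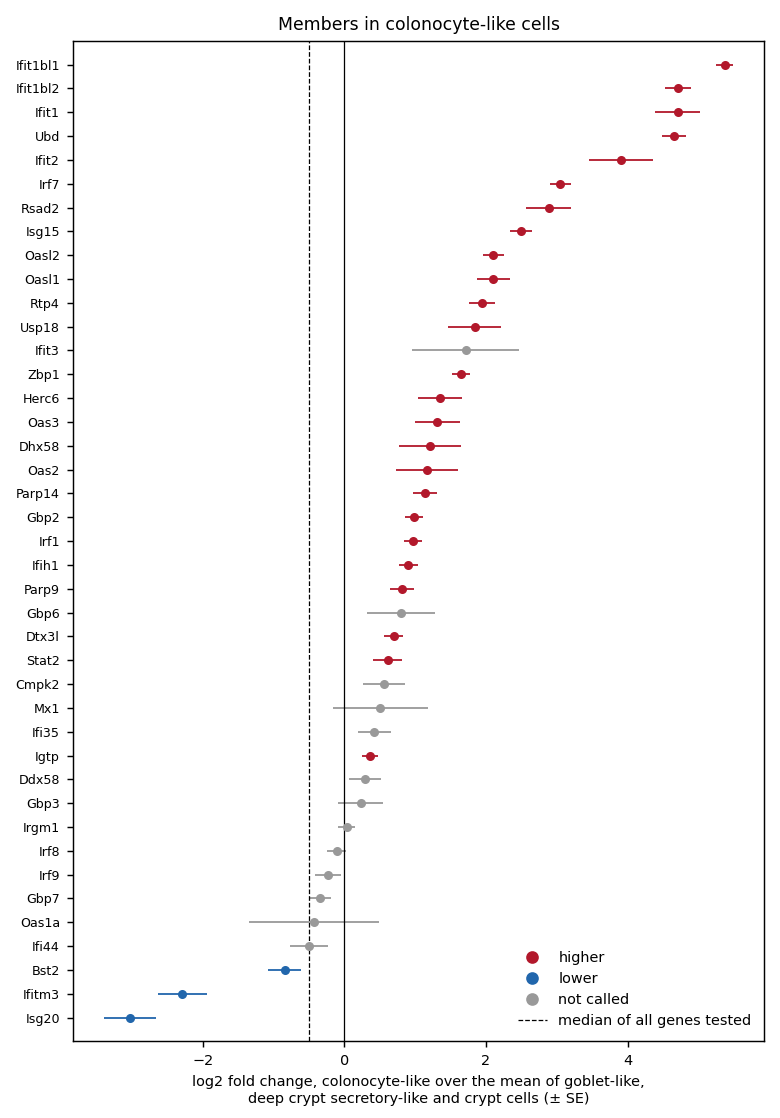
Log2 fold change of the 41 tested genes in colonocyte-like cells over the mean of goblet-like, deep crypt secretory-like and crypt cells, with SE bars; red points are higher and blue points lower at an adjusted p under 0.05. Values run from 5.37 for Ifit1bl1 to -3.02 for Isg20, and the dashed line is the median of all genes tested, -0.49.

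Of the 28 colonocyte-like calls, 17 held in all 10 alternatives that gave a test, and 25 in all but the one that thinned every sum to the depth of the shallowest, where 18 genes were higher and none was lower. In each library alone, as log2 of CPM plus 10, which draws low genes towards 0, all 28 kept their direction, but 21 values without replicate 1 and 22 without replicate 2 moved beyond the spread between the libraries. The median share of UMIs from mitochondrially encoded genes was 5.17% to 10.7% in the colonocyte-like clusters of replicate 1, against 3.23% to 4.01% in the other epithelial classes. In replicate 2 it was 11.7% to 12.4% in the colonocyte-like clusters, against 6.20% to 7.22% in the others. Without cells above 20%, 28 members were higher and 3 lower.

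Goblet-like cells were next compared with deep crypt secretory-like cells, the other secretory class. Of the 41 tested members 17 were higher in goblet-like cells and 4 were lower, where 14.8% of all genes were called, 6.45% as higher and 8.33% as lower. The median log2 fold change was 0.58 over the members and -0.12 over all genes. Of all calls 43.6% were higher in edgeR and 56.5% in DESeq2. Gbp2, a guanylate-binding GTPase of vacuole defence, reached 313.8 and 242.3 CPM in goblet-like cells, against 69.4 and 93.3 CPM in deep crypt secretory-like cells (2.06 ± 0.19, adjusted p = 3.039e-26). Its relative Gbp7, at 176.8 and 143.7 CPM in goblet-like cells, against 67.3 and 84.2 CPM in deep crypt secretory-like cells, rose by 1.35 ± 0.21 and stood above its 73.8 and 75.5 CPM in colonocyte-like cells. Zbp1 had 208.2 and 212.9 CPM in goblet-like cells, against 73.7 and 71.3 CPM in deep crypt secretory-like cells (1.72 ± 0.19, adjusted p = 3.297e-17). With 2 sums per class, none of these 3 genes overlapped between the classes, and the share of all genes without overlap is not given here.

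Irf7 (1.97 ± 0.29), Ifit1bl2 (2.02 ± 0.42), Ifit1bl1 (1.42 ± 0.25), Oas3 (1.61 ± 0.48), Oasl2 (1.55 ± 0.27) and Ifih1 (1.14 ± 0.21) were also higher in goblet-like cells. Lower were Ifitm3, at 3.99 and 3.46 CPM in goblet-like cells, against 83.0 and 47.6 CPM in deep crypt secretory-like cells (fell by 4.01 ± 0.40, adjusted p = 3.922e-21), and Isg20, at 19.4 and 8.66 CPM in goblet-like cells, against 64.4 and 75.0 CPM in deep crypt secretory-like cells (fell by 1.89 ± 0.33). Ifit1bl1 stood at 5.17% and 3.44% of its colonocyte-like level in goblet-like cells, against 2.24% and 1.36% in deep crypt secretory-like cells, where the colonocyte genes Aqp8 and Car4, read as free RNA, stood at 2.89% to 4.73% and 1.25% to 2.3%. The part of free RNA in its difference was not tested. The remaining lower calls, Bst2 and Irf8, were lost in 8 and in 10 of 10 alternatives. Without the library block 8 members were higher and 2 lower, with every sum thinned 4 were higher and none was lower, and without the Best2-led cluster 20 were higher and 3 lower.

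The goblet-like clusters differed from each other. In the Best2-led cluster the members summed to 1963 and 1577 CPM, against 2658 and 2266 CPM in the Clca1-led cluster, and 10 members were lower and 1 was higher, where 4.48% of genes were called, 1.59% as higher and 2.89% as lower. Irf7 stood at 22.0 and 48.03 CPM in the Best2-led cluster, against 86.8 and 79.5 CPM in the Clca1-led cluster (fell by 1.90 ± 0.37, adjusted p = 3.164e-05). Zbp1 had 117.5 and 128.1 CPM in the Best2-led cluster, against 265.9 and 236.3 CPM in the Clca1-led cluster (fell by 1.31 ± 0.24, adjusted p = 1.132e-05). The gene that rose was Isg20, at 38.2 and 16.01 CPM in the Best2-led cluster, against 7.46 and 6.63 CPM in the Clca1-led cluster (1.96 ± 0.56, adjusted p = 0.0158). For all 3 genes the clusters did not overlap, with 2 sums in each, and the share of all genes without overlap is not given here. The Best2-led sums of replicate 2 rest on 19 cells. The comparison of these clusters was not planned before the data were seen.

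Secretory cells, as the mean of goblet-like and deep crypt secretory-like cells, were set against the crypt cells. Of 41 members 11 were higher and 2 were lower, where 22.3% of all genes were called, 9.86% as higher and 12.4% as lower. Zbp1 rose by 1.93 ± 0.23 (adjusted p = 6.431e-16) and Gbp2 by 1.24 ± 0.19. Ifit1bl1 was also called higher (1.54 ± 0.29), but it stood at 1.30% and 0.98% of its colonocyte-like level in crypt cells, where Aqp8 and Car4 stood at 0.634% to 1.81%. In deep crypt secretory-like cells it was likewise within the range of these 2 genes. The part of free RNA in this difference was not tested. Usp18 had 6.28 and 3.46 CPM in goblet-like and 12.2 and 14.6 CPM in deep crypt secretory-like cells, against 2.06 and 2.26 CPM in crypt cells (2.12 ± 0.76, adjusted p = 0.0258). Herc6 had 22.2 and 19.0 CPM in goblet-like and 9.30 and 18.3 CPM in deep crypt secretory-like cells, against 4.12 and 6.79 CPM in crypt cells (1.87 ± 0.54, adjusted p = 0.00381). These are low counts, and the crypt values of both genes rest on few UMIs.

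The 2 lower members marked the crypt cells. Ifitm3 fell by 4.26 ± 0.22 in secretory cells (adjusted p = 1.442e-77). A UMI of it was found in 66.2% and 52.9% of crypt cells, where Aqp8, a colonocyte gene, had a UMI in 7.43% and 7.84%, at median depths of 6350 and 8424 UMIs. In goblet-like cells Ifitm3 was found in 2.14% and 2.47%. Irf8 had 74.2 and 58.9 CPM in goblet-like and 139.5 and 82.3 CPM in deep crypt secretory-like cells, against 251.2 and 153.8 CPM in crypt cells, and fell by 1.04 ± 0.17 (adjusted p = 3.146e-08). The crypt value of each library was above both secretory values of that library. Irf8 is not particular to crypt cells. In T cell-like cells it had 200.6 and 93.1 CPM, from 14 and 2 UMIs. The Reg3b-led cells described below did not differ from crypt cells in Irf8 (0.06 ± 0.22, adjusted p = 0.929 in edgeR). Ptprc, a marker of blood cells, was at 23.7 and 36.2 CPM in crypt cells, and Cd3e, Trac and Cd8a of T cells at 0 to 6.79 CPM. Levels of myeloid and B cell markers are not given here. The part of blood cells in the Irf8 level was not tested. Only Irf8, Gbp2 and Ifitm3 kept their call in all 10 alternatives, and with thinned sums 1 member was higher and 2 were lower.

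Colonocyte-like clusters differed less from each other than from the other classes. The members summed to 5436 and 5698 CPM in the Slc37a2-led cluster, 5539 and 4778 CPM in the Emp1-led cluster and 5627 and 6215 CPM in the shallow cluster. Each cluster was set against the mean of the other 2. In the Slc37a2-led cluster 2 members were higher and 5 lower (3.84% of all genes were called, 2.85% as higher and 0.985% as lower), in the Emp1-led cluster none was higher and 2 were lower (1.52%, 0.844% and 0.678%), with 6 members at an unadjusted p under 0.05 in edgeR and 1 call by DESeq2, and in the shallow cluster 2 were higher and 1 was lower (1.86%, 0.614% and 1.24%). DESeq2 put 58.8% of its calls in the shallow cluster as higher, against 33.1% of edgeR's. The 3 comparisons share their sums.

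Ifit1 was at 36.4 and 20.4 CPM in the Slc37a2-led cluster, against 99.9 and 80.3 CPM in the Emp1-led and 82.4 and 195.2 CPM in the shallow cluster. The Slc37a2-led cluster was lowest in both libraries, by 1.55 ± 0.30 on the log2 scale (adjusted p = 1.471e-05). Rsad2 was at 17.1 and 29.7 CPM in the Slc37a2-led cluster, against 36.7 and 34.4 CPM in the Emp1-led and 69.2 and 150.1 CPM in the shallow cluster (fell by 1.26 ± 0.35). Isg15 (fell by 0.74 ± 0.19) and Irf7 (fell by 0.66 ± 0.17) had the same direction. These 3 calls are weak: Isg15 was lost in 9 of 10 alternatives and Irf7 and Rsad2 in 8 each, all 3 among them without the shallow cluster, and Rsad2 turned direction at resolution 0.5. Mx1 had 2 and 0 UMIs in the Slc37a2-led cluster, and its call was lost in each of 10 alternatives. Gbp2 ran against them, at 327.9 and 343.6 CPM in the Slc37a2-led cluster, against 168.2 and 192.1 CPM in the Emp1-led and 207.6 and 330.3 CPM in the shallow cluster (0.85 ± 0.16, adjusted p = 8.153e-06). Ifit1bl1 rose slightly, by 0.46 ± 0.12.

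Ubd fell in the Emp1-led cluster, at 163.1 and 123.3 CPM, against 243.1 and 295.3 CPM in the Slc37a2-led and 510.7 and 345.3 CPM in the shallow cluster (fell by 1.21 ± 0.18, adjusted p = 1.269e-08), and the Emp1-led values were lowest in both libraries. Gbp2 fell there too, by 0.63 ± 0.18. In the shallow cluster Ubd rose by 1.03 ± 0.19 and Rsad2 by 1.49 ± 0.39, and Ifit1bl1 fell by 0.48 ± 0.14. None of these calls between colonocyte-like clusters held in every alternative, and without the library block 1, 0 and 0 members were called in the Slc37a2-led, Emp1-led and shallow clusters.

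**Figure D3:**
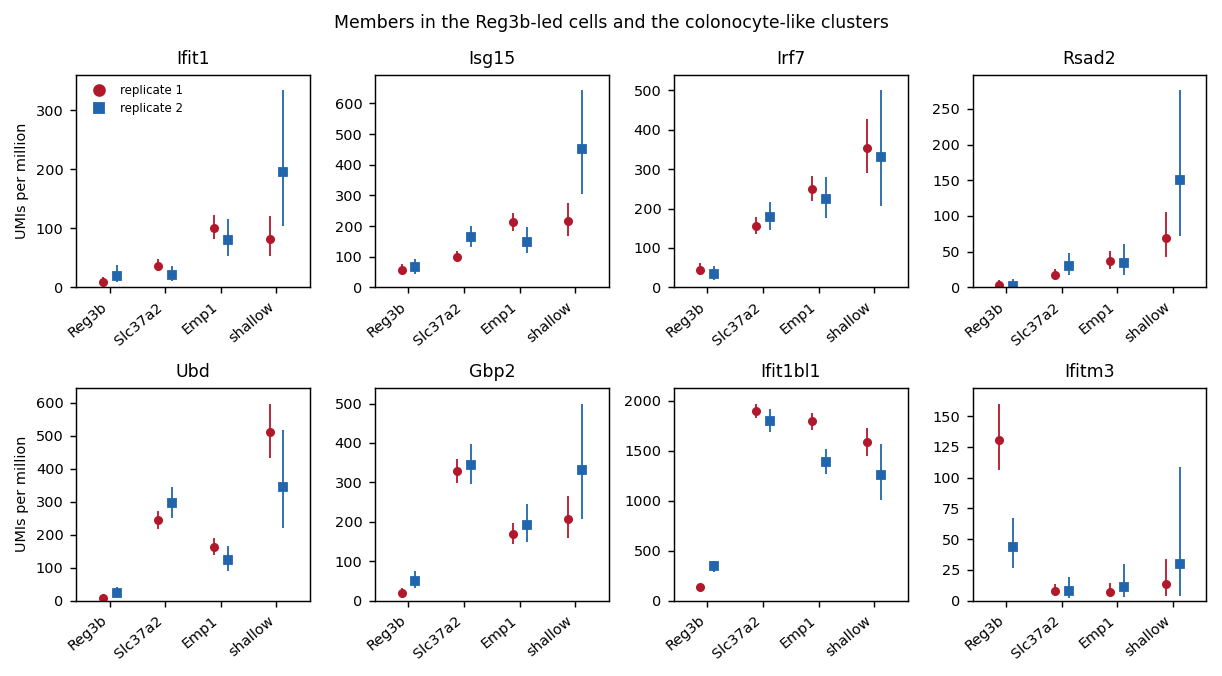
CPM of 8 genes in the Reg3b-led cells and the 3 colonocyte-like clusters, 1 point for each library with the 95% Poisson interval of its count. Ifit1 is lower in the Slc37a2-led than in the Emp1-led cluster in both libraries, Ubd and Gbp2 are higher, and in the Reg3b-led cells Ifitm3 is higher and the other 7 genes are lower than in each colonocyte-like cluster of the same library.

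The Reg3b-led cells, 122 in replicate 1 and 50 in replicate 2, had no class name but carried Reg3b and Reg3g, genes of secreted antibacterial lectins. Aqp8 was at 13.9 and 28.3 CPM in these cells, against 1304 and 1427 CPM in colonocyte-like cells. Over the whole colonocyte marker list the cells were intermediate. Their score was 0.075, against 1.968 to 2.731 in the colonocyte-like clusters and -1.808 to -0.681 in the goblet-like, deep crypt secretory-like and crypt clusters. Their members summed to 1998 and 2367 CPM. In the Reg3b-led cells 3 members were higher and 25 lower than in colonocyte-like cells, where 20% of genes were called, 11.9% as higher and 8.15% as lower. Ubd was at 8.36 and 21.7 CPM in the Reg3b-led cells, against 244.1 and 235.9 CPM in colonocyte-like cells (fell by 4.46 ± 0.30, adjusted p = 1.452e-45). Gbp2 was at 18.1 and 49.98 CPM in the Reg3b-led cells, against 254.4 and 287.3 CPM in colonocyte-like cells (fell by 3.17 ± 0.26, adjusted p = 1.44e-32). The higher members were Ifitm3 (3.03 ± 0.32), Isg20 (2.34 ± 0.52) and Irf8 (0.62 ± 0.20).

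Against crypt cells 10 members were higher in the Reg3b-led cells and 2 were lower, where 12.6% of genes were called, 5.94% as higher and 6.63% as lower. Ifit1bl1 had 139.3 and 341.2 CPM in the Reg3b-led cells, against 23.7 and 15.8 CPM in crypt cells (3.59 ± 0.30, adjusted p = 5.431e-30). Its groups did not overlap, and the share of all genes without overlap is not given here. Ifit2 (3.92 ± 1.00) and Ifit1 (3.08 ± 0.87) rose as well, at low counts. After thinning to 2000 UMIs the Reg3b-led cells held 1 and 2 UMIs of Ifit2 and 1 and 0 of Ifit1. Thinned crypt cells held none of either gene. Ifitm3, at 130.9 and 43.5 CPM in the Reg3b-led cells, against 450.9 and 233.0 CPM in crypt cells, fell by 1.89 ± 0.24, and Gbp2 fell by 1.12 ± 0.32. In replicate 2, 1 Reg3b-led cell held 48 of the 228 member UMIs left after thinning (21.1%), and its part in these results was not tested. Both comparisons were added after the data had been seen, and both share the Reg3b-led sums.

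T cell-like cells, the lymphoid cells of the preparation, are few and shallow. The 43 genes summed to 1991 and 2421 CPM in T cell-like cells, from 139 and 52 UMIs among 69799 and 21480, against 1581 and 1535 CPM in deep crypt secretory-like cells at the low end of the epithelial classes and 5497 and 5398 CPM in colonocyte-like cells at the high end. T cell-like cells were set against the mean of the epithelial classes. Each colonocyte-like cluster entered that mean apart, so colonocyte-like cells weigh most in it. In edgeR 0 members were higher and 12 were lower, where 13.2% of all genes were called, 4.27% as higher and 8.91% as lower. An unadjusted p under 0.05 in edgeR was found for 18 members. A lower call is not a level under each class. Ifit1bl1 was called lower, yet its 186.2 and 139.7 CPM in T cell-like cells lay above the goblet-like, deep crypt secretory-like and crypt values given above. DESeq2 instead called 3 higher (Isg20, Ddx58 and Gbp6) and 2 lower (Oasl2 and Igtp). The median over all genes was -0.88 in edgeR and 0.08 in DESeq2, and 32.4% of all calls were higher in edgeR and 62.2% in DESeq2, so the scaling weighs on every direction here. Oasl2 had no UMI in T cell-like cells. A count of 0 among 91279 UMIs allows up to 32.9 CPM (3 counts over both libraries). Oasl2 was thus at least 2.99-fold lower than its 98.4 CPM pooled over the epithelial classes. The lowest epithelial sum of Oasl2 given above is under that limit, so the bound does not hold against each class. The Oasl2 call held in all 10 alternatives. Oasl1, also without a UMI, was at least 1.11-fold lower than its pooled epithelial level of 36.6 CPM. For the other 12 members without a UMI, among them Ifit1, Ifit2, Ifit3 and Usp18, the pooled epithelial level was itself under the limit of 32.9 CPM, so absence in T cells was not detectable at this depth. With Oasl1 and Oasl2 at their bounds and those 12 left out, the median over 31 members was -1.10.

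Igtp had 28.7 and 93.1 CPM in T cell-like cells, against 118.9 to 243.4 CPM in the epithelial classes (fell by 2.82 ± 0.55, adjusted p = 6.773e-06). Ddx58 had 143.3 and 139.7 CPM in T cell-like cells, from 10 and 3 UMIs, against 28.6 to 39.8 CPM in the epithelial classes, and was not called by edgeR. Isg20 had 86.0 and 46.6 CPM and Ifitm3 42.98 and 46.6 CPM in T cell-like cells. The lower calls of Parp9 (0 and 46.6 CPM), Rtp4 (14.3 and 0 CPM) and Ifit1bl2 (14.3 and 0 CPM) rest on 0 or 1 UMI in each library. Ifih1 had 14.3 and 232.8 CPM in T cell-like cells and was called lower (fell by 1.65 ± 0.53), but without replicate 1 it was 0.98 higher on the log2 scale. T cell markers were present (Cd8a at 974.2 and 884.5 CPM, Cd3e at 401.2 and 139.7 CPM), and so were transcripts of epithelial cells, with Zg16 of goblet cells at 4370 and 3119 CPM and Car4 of colonocytes at 128.9 and 93.1 CPM. Their part in these levels was not tested.

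RNA released from broken cells adds UMIs to all droplets. The colonocyte genes Aqp8 and Car4 stood in goblet-like cells at 2.89% to 4.73% of their colonocyte-like level, in deep crypt secretory-like cells at 1.25% to 2.3%, in crypt cells at 0.634% to 1.81% and in T cell-like cells at 3.11% to 9.79%. In both libraries, 1 member was at or under the higher of these 2 shares in deep crypt secretory-like cells, Ifit1bl1 at 2.24% and 1.36%. In crypt cells Ifit1bl1 stood at 1.30% and 0.98%, between the shares of the marker genes. The part of free RNA in its level in either class was not tested. No member was at or under the share in both libraries in goblet-like or crypt cells, and in T cell-like cells only the 14 without a UMI were.

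Single cells were compared after drawing 2000 UMIs from each, which left out 103 and 22 shallower colonocyte-like cells. Most of these were of the shallow cluster, of which 57 of 142 and 13 of 31 cells remained. Colonocyte-like cells then held a UMI of 6.30 and 6.37 members on average, against 3.85 and 3.22 in goblet-like, 2.71 and 2.49 in deep crypt secretory-like and 3.33 and 2.94 in crypt cells. The variance of member UMIs over their mean (the Fano factor, 1 for random counting) was also highest in colonocyte-like cells. It was 5.71 and 4.85 there, against 2.96 and 2.45 in goblet-like, 1.69 and 1.81 in deep crypt secretory-like and 2.12 and 1.88 in crypt cells. At least 20 member UMIs were drawn from 54 of 419 and 7 of 128 colonocyte-like cells (12.9% and 5.47%), against 1 of 283 goblet-like cells in replicate 1 and no other goblet-like, deep crypt secretory-like or crypt cell. The highest colonocyte-like cells had 58 and 60 member UMIs from 19 and 21 members, and both were in the Emp1-led cluster. Ifit1bl1 gave 18 and 15 of these UMIs. The classes also differed in mean, at 11.2 and 10.8 member UMIs per colonocyte-like cell, against 5.05 and 4.15 in goblet-like, 3.15 and 2.90 in deep crypt secretory-like and 4.39 and 3.73 in crypt cells. The part of the mean in the order of the Fano factors and in the shares of cells at 20 or more UMIs was not tested. These measures were not computed without Ifit1bl1, so its part in them was not tested either. Of T cell-like cells 8 and 7 were deep enough.

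**Figure D4:**
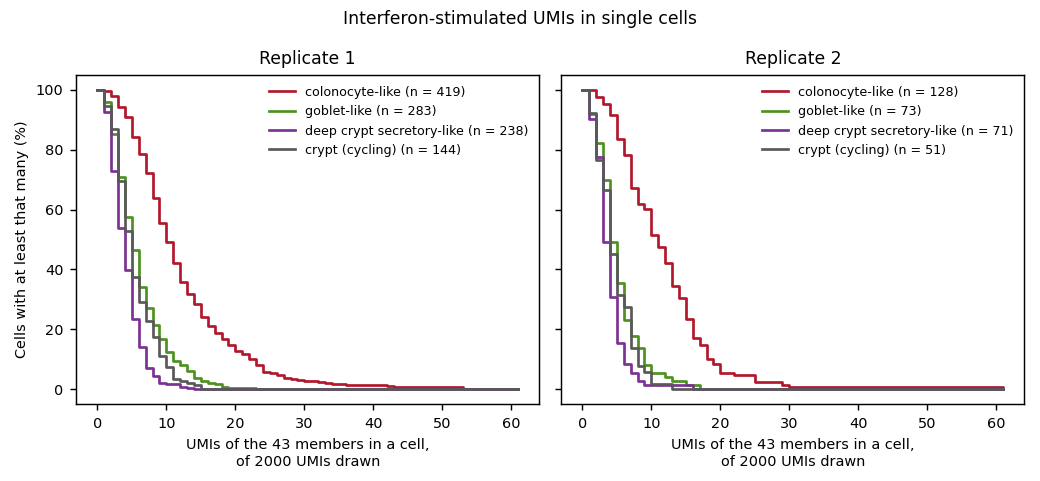
Share of cells (percent, y axis) with at least a given number of UMIs of the 43 genes (x axis) after 2000 UMIs were drawn from each cell, by class and library. The colonocyte-like curve lies to the right of the others, with 12.9% and 5.47% of its cells at 20 or more, and reaches 58 and 60.

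Members were spread over colonocyte-like cells in different ways. Ifit1bl1 was found in 85.2% and 87.5% of the thinned cells (90.4% and 93.3% before thinning), where an even spread of the same UMIs would give 97.5% and 96.4%. In deep crypt secretory-like cells, where its share of the colonocyte-like level was within that of Aqp8 and Car4, 17.1% and 15.8% of unthinned cells held a UMI. The median depths there were 5277 and 7414 UMIs. Zbp1 came close to an even spread, in 37.0% and 38.3% of thinned cells, where 38.8% and 39.8% would be even. Ubd was the most uneven member by Fano factor in replicate 1. It was found in 21.7% and 19.5% of thinned cells (33.0% and 38.7% before thinning), where an even spread would give 43.7% and 34.4%, and the 5% of cells with most held 59.3% of its UMIs in each library. In replicate 1, 14 of 419 cells had 5 or more Ubd UMIs and together held 118 of 241. Its Fano factor of 6.91 ranked 10 of 2500 genes in replicate 1 and 3.23 ranked 28 of 1032 in replicate 2, where the median gene had 1.083 and 1.21. In the Emp1-led cluster of replicate 1, 3 of 129 cells held 44 of 69 Ubd UMIs, 30 of them in a single cell.

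Ifit1 was found in 8.12% and 6.25% of thinned colonocyte-like cells, where 11.9% and 14.5% would be even, and in replicate 2 a single cell gave 8 of its 20 UMIs. Gbp2 (30.1% and 34.4%, where 40.3% and 43.02% would be even), Isg15 (21.2% and 28.1%, where 27.2% and 32.3% would be even) and Igtp (31.0% and 29.7%, where 39.3% and 35.9% would be even) lay between. In goblet-like cells Gbp2 was again uneven, with Fano factors of 1.84 and 2.36, ranked 61 of 2030 and 28 of 556 genes. In crypt cells Ifitm3 had Fano factors of 2.07 and 1.51.

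**Figure D5:**
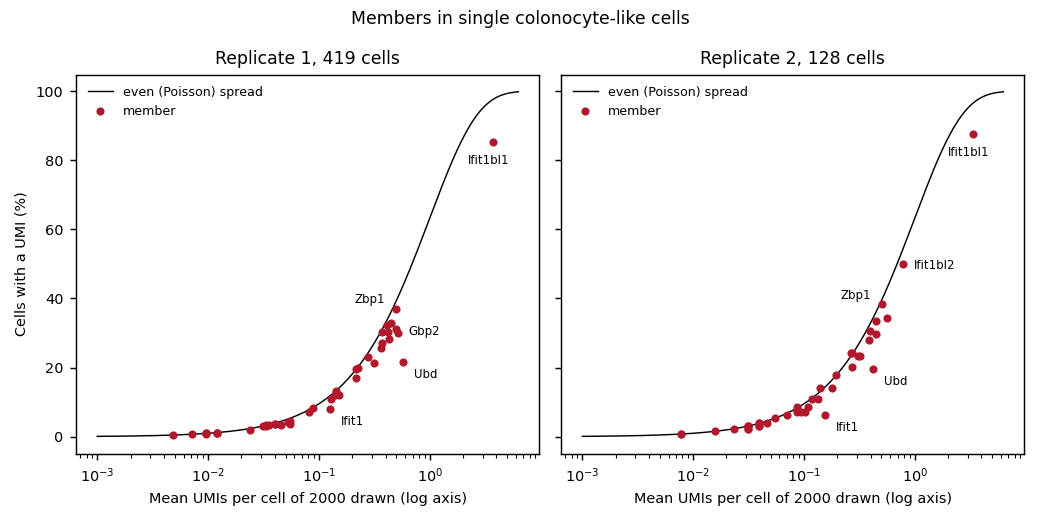
Share of colonocyte-like cells with a UMI of each member (y axis, percent) against its mean UMIs per cell after thinning (x axis, log scale), in replicate 1 (419 cells) and replicate 2 (128 cells). The line is an even (Poisson) spread; Zbp1 lies near it and Ubd well under it, at 21.7% and 19.5%.

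Pairs of members that moved together over cells were described by Pearson's r of log counts within a class and library, without a test, since the cells share library, depth and free RNA. Ifit1bl1 and Ifit1bl2 had 0.50 and 0.61 over all colonocyte-like cells, where the median pair had 0.08 and 0.06. In the Emp1-led cluster the median pair had 0.13 and 0.09, and 152 of 528 and 173 of 496 pairs were over 0.2. Among its pairs highest in both libraries were Ifit1 and Usp18 with 0.57 and 0.57, Ifit1 and Ifit2 with 0.45 and 0.52, and Isg15 and Usp18 with 0.48 and 0.40. In replicate 2 this cluster has 39 cells, and 1 of them held 60 of 408 member UMIs after thinning, 8 of them of Ifit1; its part in these values was not tested. In the other epithelial classes the pairs with the highest r in replicate 1 were GTPases; in replicate 2, with fewer cells, other pairs reached up to 0.54 in crypt and 0.48 in deep crypt secretory-like cells. Igtp and Irgm1 had 0.35 and 0.41 in goblet-like and 0.39 and 0.47 in crypt cells, and Gbp2 and Igtp had 0.32 and 0.32 in deep crypt secretory-like cells. In crypt cells Irf8 and Ifitm3, the members highest there, had 0.28 and 0.25.

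Other genes of the pathway were read in the same fits. In colonocyte-like cells 14% of all genes were higher and 34% lower, and the counts of receptor, regulator and sensing genes below are given against those shares, with no result about the lists read from them. The interferon genes themselves were near 0, and of 11 listed only Ifna2 had enough UMIs to test, and it did not pass in colonocyte-like cells (1.18 ± 0.68, adjusted p = 0.145). Of 6 receptor genes 3 were higher in colonocyte-like cells than in the other epithelial classes and 1 was lower. Ifngr1, a chain of the interferon gamma receptor, was at 433.9 and 479.2 CPM in colonocyte-like cells, against 143.2 and 206.0 CPM in goblet-like, 69.4 and 54.9 CPM in deep crypt secretory-like and 88.5 and 81.4 CPM in crypt cells (1.98 ± 0.12, adjusted p = 9.859e-63). Its partner Ifngr2 rose by 1.02 ± 0.15 and Ifnar2 of the type I receptor fell by 0.90 ± 0.37. Of 17 kinases, STATs and regulators tested, 1 was higher (Irf4) and 2 were lower (Irf2bp2 and Ptpn2), and Jak1 did not pass. Of 16 genes of nucleic acid and microbe sensing 3 were higher and 4 lower, among them the bacterial sensor genes Nod1 (fell by 3.46 ± 0.83) and Nod2 (fell by 2.89 ± 1.00) and Tmem173, which encodes STING (fell by 1.70 ± 0.49).

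Of 67 further interferon-stimulated genes tested, 32 were higher in colonocyte-like cells and 12 lower, against 14% and 34% of all genes. Apol6 (4.04 ± 0.48) and Phf11b (3.58 ± 0.40) led the higher ones, and Ifitm2, a relative of Ifitm3, was lower (fell by 3.24 ± 0.21). Ifitm2 stood at 15.2 and 8.39 CPM in colonocyte-like cells, against 65.0 and 41.6 CPM in goblet-like, 161.7 and 140.9 CPM in deep crypt secretory-like and 275.9 and 228.5 CPM in crypt cells. Of 8 tested genes of MHC class II presentation 6 were higher and none was lower, led by H2-Aa (1.60 ± 0.09), the class II activator Ciita (1.36 ± 0.25) and H2-Ab1 (1.06 ± 0.09). Of 12 genes of MHC class I and its peptide supply 5 were higher, among them Tap2 (0.66 ± 0.14) and Tapbp (0.51 ± 0.10), and the trimming enzyme gene Erap1 was lower (fell by 0.99 ± 0.22).

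Goblet-like cells differed from deep crypt secretory-like cells most in Slfn2 (4.21 ± 0.62), Ido1 (3.76 ± 0.22) and Slfn4 (3.52 ± 0.32), in a list where 18 of 67 were higher and 3 lower, where 6.45% and 8.33% of all genes were. Ido1, an enzyme of tryptophan breakdown, had 369.1 and 450.1 CPM in goblet-like cells, against 14.3 and 75.0 CPM in deep crypt secretory-like cells. Ifngr1 rose too (1.56 ± 0.20), as did the signal inhibitor genes Socs1 (1.20 ± 0.40) and Socs3 (1.26 ± 0.39), Trim25 of RNA sensing (1.33 ± 0.24) and Tap2 (0.76 ± 0.21), while Irf2bp2, Nod1, Cd74 and H2-Eb1 were lower. In secretory cells 4 of 8 class II genes were lower than in crypt cells and 1 was higher, with Ciita down by 1.90 ± 0.33 and H2-Eb1 by 1.46 ± 0.12, and 14 of 67 further interferon-stimulated genes were higher and 8 lower, where 9.86% of all genes were higher and 12.4% lower. The receptor genes Ifnlr1 (1.42 ± 0.52), Il10rb (0.77 ± 0.23) and Ifngr1 were higher in secretory than in crypt cells, and Irf2bp2, Tmem173 (fell by 1.64 ± 0.38) and Mb21d1, which encodes the DNA sensor cGAS (fell by 2.46 ± 0.40), were lower. In T cell-like cells 6 of 8 class II genes were lower than the mean of the epithelial classes and none was higher in edgeR. Of all genes 8.91% were lower and 4.27% higher there, at a median over all genes of -0.88. H2-Aa reached 530.1 and 931.1 CPM in T cell-like cells, against 3542 and 2916 CPM in colonocyte-like cells. Ptpn6 (3.36 ± 0.41), Tmem173 (3.18 ± 0.68) and Ifi203 (4.16 ± 0.56) were higher in T cell-like cells, and Ifngr2 was lower (fell by 2.93 ± 0.74).

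Among 3071 genes outside these lists with enough UMIs, the level over 14 sums (T cell-like, epithelial and colonocyte-like cluster sums of both libraries) most like the summed members was that of Sult1b1 (Pearson's r = 0.98), followed by Prdx6, Ces2c, Clca4b, Slc51b, Sectm1b, 1500004A13Rik, Slc9a2, Slc15a1 and Cyp4f14, down to 0.96. The sums share libraries, and the values are a description.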

How the data were processed

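The 43 genes and the other gene lists were chosen with earlier results of these data known. The authors deposited raw counts of UMIs per gene and barcode for each library, with genome builds GRCh38 and GRCm38 per the submitters' processing notes; the aligner, gene annotation, strand setting and barcode filter were not given in the sources used here, so reads shared by related or overlapping genes may be divided between them. The libraries summed to 8602490 and 3951918 UMIs.

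Barcodes needed 500 UMIs and 250 genes, which removed 0. The 5% of barcodes of each library most like simulated doublets were left out (87 and 34). Clusters came from 12706 genes without the 43, the other interferon and MHC genes and mitochondrially encoded genes (1500 variable genes, 30 principal components, 15 neighbours, Leiden resolution 1 with leidenalg 0.10.2 and scikit-learn 1.9.0), and were named from marker lists. UMIs were summed per library and class, and genes of the remaining 12798 with at least 20 UMIs over the sums were tested with edgeR 4.0.16 (TMM, quasi-likelihood, Benjamini-Hochberg adjustment over all genes tested, threshold 0.05), with the library as a block because the classes are cut from the same libraries. A separate fit held the T cell-like sums, and another kept all clusters apart. The sum of a class in one library is the unit of replication, with 2 per class. CPM is a sum over the UMIs of its class and library, with exact 95% Poisson intervals in the plots, which like the limit of 3 counts cover counting error only. The test was tried on simulated counts before use. Genes named in full are the 8 members with the highest level, the 8 with the largest called change in colonocyte-like cells, the 4 largest in each other comparison and those that ran against their group, with the 3 largest called changes of each other list and the 10 genes most like the summed members. Alternatives were DESeq2 1.42.0, no filter, no block, thinned sums, no doublet filter, resolutions 0.5 and 1.5, no cells above 20% mitochondrially encoded UMIs, each library alone, thinning to 1000 UMIs and, chosen after seeing the data, leaving out the shallow or the Best2-led cluster. K562 barcodes were not analysed here, and no promoter or protein sequence was used here.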

Additional observations from a re-analysis of the deposited data

How the results depend on the processing

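The library numbers pair the sums by construction, so the replicate block is part of the test. Without the block 10 members were called between goblet-like and deep crypt secretory-like cells, 1 in the Slc37a2-led, 0 in the Emp1-led and 0 in the shallow cluster, and 7 in T cell-like cells; these counts fell by more than 1.5 times, and the colonocyte-like and secretory counts did not. Thinning all sums to the depth of the lowest (66611 UMIs, or 21480 with T cells) left 18 calls in colonocyte-like, 4 in goblet-like, 3 in secretory and 3 in T cell-like cells, 1 in the Slc37a2-led, 0 in the Emp1-led and 0 in the shallow cluster, from fewer UMIs. DESeq2 called 3, 1 and 0 members in the Slc37a2-led, Emp1-led and shallow clusters and 5 in T cell-like cells. In the Slc37a2-led cluster 3 were called with no doublet filter, 3 at resolution 0.5, 3 at 1.5, 3 without the shallow cluster and 4 without cells above 20% mitochondrially encoded UMIs, which left 1 in the Emp1-led and 1 in the shallow cluster. In the Emp1-led cluster 1 was called with no filter on counts and 1 without the Best2-led cluster. The direction turned for Bst2 in colonocyte-like cells (0.063, thinned), Ifih1 in secretory cells (-0.040, thinned), Rsad2 in the Slc37a2-led cluster (0.088, resolution 0.5) and Ifih1 in T cell-like cells, which ran from -2.80 without replicate 2 to 0.98 without replicate 1. The cause of these changes was not tested. Each library alone gives a log2 difference with no test, and 56 values without replicate 1 and 47 without replicate 2 moved beyond their spread.

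Thinned to 1000 UMIs, mean members with a UMI were 3.87 in colonocyte-like, 1.86 in goblet-like, 1.47 in deep crypt secretory-like and 1.83 in crypt cells, and Fano factors were 3.15, 2.12, 1.33 and 1.40 in that order, so colonocyte-like cells stayed highest in both measures. The shallow cluster was absent at resolution 0.5 and with no doublet filter, which give no value for it. The planned motif search was not run.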
